A study of Mus musculus with 19 samples.

Results

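The transcripts described here belong to genes that make, use or carry ketone bodies and related monocarboxylates. The listed genes were Bdh1, Oxct1, Aacs, Acat1, Slc16a1, Slc16a7, Slc5a8 and Slc5a12, and every probe set annotated to a single one of them was taken. This gave 15 probe sets of 7 genes, out of 45141 probe sets on the array and 17097 named genes. Oxct1 had 4 probe sets, Acat1 had 3, Aacs, Slc16a1 and Slc5a12 had 2 each, and Slc16a7 and Slc5a8 had 1 each. No probe set in the annotation used names Bdh1, which was left out.

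The RNA came from lengthwise pieces of both kidneys of 19 male mice without ischemia-reperfusion, and each mouse had its own Affymetrix HT MG-430 PM array. The young-lean mice were C57BL/6J, aged 10 to 14 weeks and weighing 22 to 25 g, with 5 ad libitum fed and 4 fasted animals. The aged-overweight mice were wild type F1 hybrids of FVB and C57BL/6J, on average 73 weeks old and 47 g in weight, with 5 ad libitum fed and 5 fasted animals. Fasting lasted 3 days with free access to water. Strain, age and body weight differ together between the young and the aged mice, so their parts cannot be told apart. The question was how fasting alters renal expression of these genes in each age, and whether the response differs between the ages.

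Ketone bodies are made in liver mitochondria from fatty acids during fasting and are burned in other organs, the kidney among them. To use them, a cell takes up acetoacetate or beta-hydroxybutyrate through monocarboxylate transporters, activates acetoacetate with succinyl-CoA by the enzyme that Oxct1 encodes, and splits the product into acetyl-CoA with the thiolase encoded by Acat1. Aacs encodes a cytosolic enzyme that activates acetoacetate for lipid synthesis instead. The proximal tubule also reclaims filtered lactate and ketone bodies from the urine through the sodium-coupled carriers encoded by Slc5a8 and Slc5a12.

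The promoters of the 3 genes that passed the test below are shown for reference, from RefSeq on build GRCm38.p6, each running from 250 bases before to 50 bases after the start of transcription on the forward strand. They lie at chr15:4026178-4026477 for Oxct1, chr5:125475623-125475922 for Aacs and chr3:104638414-104638713 for Slc16a1. Capitals mark matches to the motifs searched on both strands, and a sequence without capitals held none of them.
Oxct1: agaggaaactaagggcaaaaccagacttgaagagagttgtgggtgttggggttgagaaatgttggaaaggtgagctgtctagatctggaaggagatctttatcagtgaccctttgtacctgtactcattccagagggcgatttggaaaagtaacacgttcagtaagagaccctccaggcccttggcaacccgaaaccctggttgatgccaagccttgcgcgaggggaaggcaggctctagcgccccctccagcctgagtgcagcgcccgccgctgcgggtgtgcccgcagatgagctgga
Aacs: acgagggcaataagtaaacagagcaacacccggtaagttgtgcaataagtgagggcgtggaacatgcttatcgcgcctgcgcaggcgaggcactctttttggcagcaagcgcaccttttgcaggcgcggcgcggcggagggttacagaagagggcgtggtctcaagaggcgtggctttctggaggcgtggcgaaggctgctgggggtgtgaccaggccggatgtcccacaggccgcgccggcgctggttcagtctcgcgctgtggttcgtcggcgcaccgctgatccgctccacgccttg
Slc16a1: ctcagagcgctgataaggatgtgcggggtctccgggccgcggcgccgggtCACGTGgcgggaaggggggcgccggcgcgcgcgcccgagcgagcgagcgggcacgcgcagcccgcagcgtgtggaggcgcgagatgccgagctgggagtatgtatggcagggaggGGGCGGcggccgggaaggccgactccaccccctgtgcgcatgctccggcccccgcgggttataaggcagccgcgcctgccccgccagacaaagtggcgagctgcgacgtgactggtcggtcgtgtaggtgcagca

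RefSeq promoters were matched for 5 of the 8 listed genes. The motifs searched were the E-box CACGTG, the nuclear receptor core motif AGGTCA, a direct repeat of that core with 1 spacer base, the sterol element TCACNCCAC and the GC box GGGCGG. The direct repeat contains the core motif and thus overlaps with it. The Slc16a1 promoter held 1 E-box, at position -200 from the start, and 1 GC box, at position -85. Of 32851 mouse promoters of the same length, 7.15% held the E-box and 35.7% held the GC box. The core motif was found in 16.3%, the sterol element in 1.24% and the direct repeat in 0.0396% of all promoters. The G and C content was 73.7% for Slc16a1, 63.3% for Aacs and 55.3% for Oxct1, against a median of 52.7% over all promoters.

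The array values are log2 levels, so a difference of 1 is a doubling, and levels are compared only between mice of one age because the array medians lay between 4.15 and 4.21 in young and between 3.44 and 3.49 in aged mice. Differences were tested with limma, p values were corrected for all 45141 probe sets after Benjamini and Hochberg, and a probe set passed when its adjusted p did not exceed 0.05. All 24 tubule marker genes measured lay above the array median on all 19 arrays. Liver markers had a mean log2 level over 11 genes of 10.01 in aged fasted mouse 33, far above the 6.96 of the next aged fasted mouse. Young fasted mouse 339 had the highest level of its group by a smaller gap, 8.54 against 8.01 in the next mouse. The fed mice ranged from 6.19 to 7.24 in the aged group, highest in mouse 40, and from 7.001 to 7.86 in the young group, highest in mouse 348.

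Fasting lowered Oxct1 in both ages, lowered Aacs and raised Slc16a1 in young mice, and left no other gene of the group past the test. For the difference of the response between the ages 0 of the 15 probe sets passed, where 1.95% of all probe sets did. In aged mice 0 of the 15 probe sets rose and 4 fell, all of them Oxct1, where 3.16% of all probe sets on the array rose and 3.32% fell. By limma at an unadjusted p under 0.05, 2 rose, both Slc5a12, and 6 fell, where 9.86% and 8.87% of all probe sets did so. In young mice 1 rose, for Slc16a1, and 5 fell, 4 of Oxct1 and 1 of Aacs, against 10.1% of all probe sets that rose and 9.54% that fell. At an unadjusted p under 0.05 the young counts were 1 and 6, against 15.8% and 14.5% of all probe sets. With a fold change of at least 1.5 added, 0 of 15 were called in aged and 2 in young mice, for Aacs and Slc16a1, and the shares over all probe sets were 1.89% and 5.31%. The Slc16a1 fold change of 1.52 lay close to that limit, and without young fasted mouse 339 (1.48-fold) or young fed mouse 349 (1.495-fold) only Aacs was called. The fed and fasted mice did not overlap at 5 of the 15 in aged and 8 in young mice, against 7.25% and 17.2% of all probe sets. All 4 Oxct1 probe sets, which measure the same RNA, were among them at each age. The counts thus came from 2 genes in aged and 5 genes in young mice. The median log2 change over the 15 probe sets was -0.15 in aged and -0.10 in young mice, beside 0.00033 and 0.0033 over all probe sets.

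**Figure D1:**
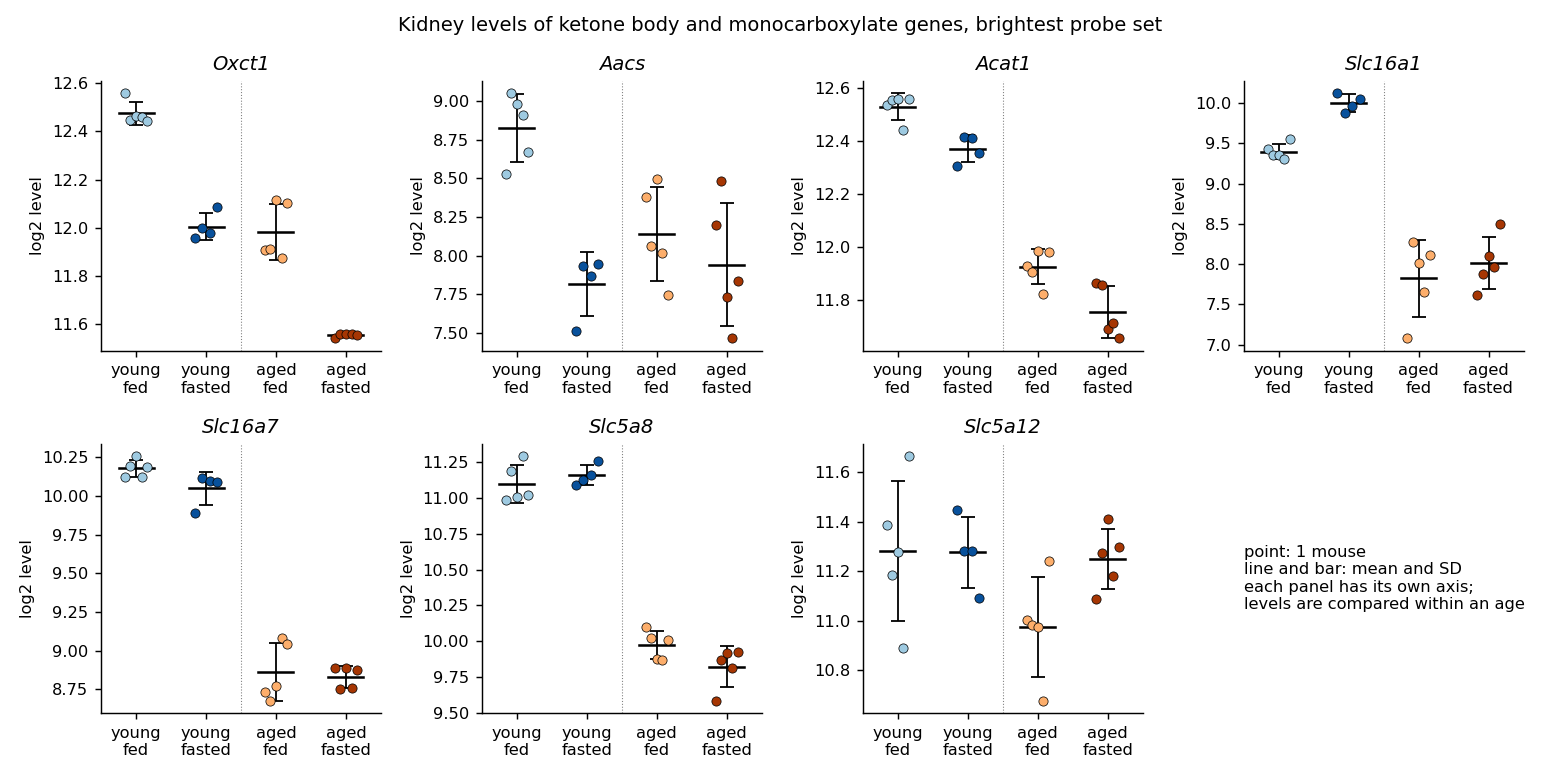
Log2 level (y axis) of each of the 7 genes at its brightest probe set in each mouse (points), with the group mean and SD (line and bar), for young and aged, fed and fasted mice (x axis); each panel has its own axis. Oxct1 was lower in fasted mice at both ages with no overlap, while Aacs and Slc16a1 separated the diets in young mice and overlapped in aged mice.

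Oxct1 encodes the mitochondrial transferase that commits acetoacetate to oxidation and is absent from hepatocytes. At its brightest probe set the aged fed mice 34, 36, 37, 40 and 43 had log2 levels of 11.91, 11.91, 12.11, 11.88 and 12.10. The aged fasted mice 33, 38, 39, 41 and 42 had 11.54, 11.56, 11.56, 11.56 and 11.56. Every fasted mouse lay below every fed mouse. At this probe set the 5 fasted mice lay very close together, with an SD of 0.0078 against 0.115 in the fed mice. The other Oxct1 probe sets did not show such closeness, with fasted SDs of 0.056, 0.141 and 0.099 against fed SDs of 0.092, 0.134 and 0.133.

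In young fed mice 346 to 350 the Oxct1 level was 12.56, 12.45, 12.46, 12.46 and 12.44. In young fasted mice 339, 340, 343 and 344 it was 11.96, 12.00, 11.98 and 12.09. The diets did not overlap here either. The log2 change was -0.43 ± 0.07 (SE) in aged mice, or 74.4% of the fed level (limma, adjusted p = 0.00229), and -0.47 ± 0.05 in young mice, or 72.2% (adjusted p = 0.000131).

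The other 3 Oxct1 probe sets showed changes of -0.50, -0.47 and -0.41 in aged mice and of -0.49, -0.47 and -0.48 in young mice, all past the test and all without overlap. Over the 19 arrays, centred within each age, they followed the brightest probe set with r = 0.956, 0.934 and 0.953, a description only, since probe sets of a gene measure the same RNA of the same mice. The difference between the ages, aged minus young, was 0.04 at the brightest probe set, with a 95% interval from -0.13 to 0.21 (limma, adjusted p = 0.899).

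Without aged fasted mouse 33 the Oxct1 change was -0.42 (limma, adjusted p = 0.00563), and without young fasted mouse 339 it was -0.45 (adjusted p = 0.000628). Markers of the loop of Henle and distal tubule also had lower mean levels in fasted mice, at 9.69 to 9.82 against 9.89 to 10.33 in aged mice and 10.78 to 10.86 against 11.13 to 11.29 in young mice. Of those 6 markers, 2 fell in aged mice, Calb1 (-0.99) and Pvalb (-1.13), while Umod, Slc12a1, Slc12a3 and Kcnj1 lay between -0.19 and 0.20 without passing. In young mice Calb1 (-0.94), Pvalb (-1.01) and Kcnj1 (-0.45) fell. Proximal tubule markers had mean levels of 10.17 to 10.35 in aged fasted against 10.37 to 10.63 in aged fed mice, and of 10.30 to 10.54 against 10.59 to 10.77 in young mice. Of the 12 proximal markers measured, 2 rose and 3 fell in aged and 2 rose and 4 fell in young mice. The largest fall was that of Slc22a7, an anion transporter, at -2.67 and -3.71. The median log2 change of the 12 was 0.006 in aged and 0.07 in young mice, although the mean level over the list was lower in the fasted mice. Red cell markers had a mean level over 3 genes of 8.74 to 9.25 in aged fasted against 9.27 to 9.78 in aged fed mice, where 1 fell. In young mice these levels were 8.68 to 8.94 against 9.24 to 9.96, and all 3 fell. The part of these markers in the Oxct1 result was not tested. In bulk kidney tissue, fewer cells of a type and less RNA per cell cannot be told apart.

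Acat1, the mitochondrial thiolase that completes ketone use and also serves isoleucine breakdown, showed smaller differences that did not pass. At its brightest probe set the aged fed mice had log2 levels from 11.82 to 11.98 (median 11.93) and the aged fasted mice from 11.65 to 11.86 (median 11.71). The young fed mice had 12.54, 12.55, 12.56, 12.44 and 12.56 and the young fasted mice 12.30, 12.41, 12.41 and 12.36. The diets overlapped in aged mice and did not overlap in young mice. The log2 change was -0.17 (95% interval -0.32 to -0.02, limma adjusted p = 0.189) in aged and -0.16 (-0.28 to -0.04, adjusted p = 0.0647) in young mice. In young mice it passed without fed mouse 349, the lowest of its group (adjusted p = 0.0433).

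The next Acat1 probe set gave -0.16 in aged mice, without overlap (limma, adjusted p = 0.188), and -0.10 in young mice. The dimmest gave 0.05 and 0.02, so the Acat1 probe sets disagree in sign, and their r with the brightest was 0.671 and 0.175. No Acat1 probe set passed in either age.

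Aacs, the cytosolic acetoacetyl-CoA synthetase, had levels of 8.53, 9.05, 8.98, 8.91 and 8.67 in young fed mice 346 to 350. Young fasted mice 339, 340, 343 and 344 had 7.51, 7.93, 7.87 and 7.95. All fasted mice were below all fed mice. The log2 change was -1.01 ± 0.12, which is 49.6% of the fed level (limma, adjusted p = 0.000177), and it was -0.91 without mouse 339 (adjusted p = 0.000418).

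Aged fed mice 34, 36, 37, 40 and 43 had Aacs levels of 8.38, 8.06, 8.50, 8.01 and 7.75, and aged fasted mice 33, 38, 39, 41 and 42 had 8.20, 8.48, 7.74, 7.46 and 7.84. These groups overlapped widely, with SDs of 0.30 and 0.40 against 0.22 and 0.21 in young mice. The log2 change was -0.20 ± 0.19 (95% interval -0.60 to 0.21, limma adjusted p = 0.651).

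The difference of the Aacs response, aged minus young, was 0.81 ± 0.24 on the log2 scale (95% interval 0.30 to 1.32), with an unadjusted p of 0.00337 and an adjusted p of 0.0936 in limma, which did not pass. It was the largest difference among the 15 probe sets, of which 0 passed and 1 had an unadjusted p under 0.05 by limma, where 1.95% of all probe sets passed and 13.6% had such an unadjusted p. In each of 26 alternative fits the adjusted p stayed above the threshold, from 0.0504 without aged fasted mouse 41 to 0.245 without mice 33 and 339. A second Aacs probe set had its group means between the 32.7 and 38.1 percentile of the arrays and gave -0.05 in aged and -0.07 in young mice.

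**Figure D2:**
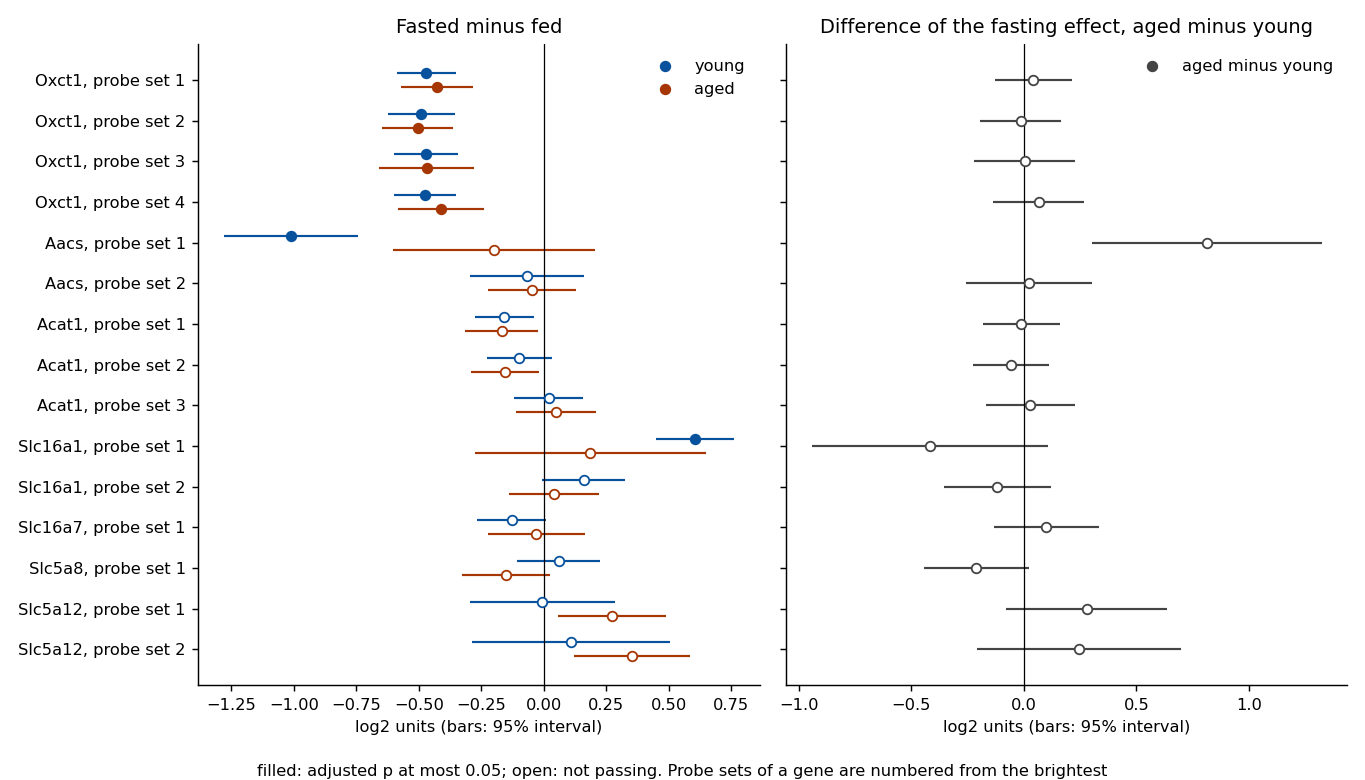
Left, log2 change on fasting with its 95% interval for all 15 probe sets in young and aged mice; right, the difference between those changes, aged minus young; filled points passed the test, and probe sets of a gene are numbered from the brightest. The 4 Oxct1 probe sets lie together at both ages, and the interval of Aacs at its brightest probe set, 0.30 to 1.32, lies above 0 although the adjusted p of 0.0936 did not pass.

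Slc16a1 encodes MCT1, the widely expressed proton-coupled carrier of lactate, pyruvate and ketone bodies. Young fed mice 346 to 350 had log2 levels of 9.43, 9.36, 9.36, 9.30 and 9.55. Young fasted mice 339, 340, 343 and 344 had 10.12, 9.87, 9.96 and 10.06. Every fasted mouse lay above every fed mouse. The rise was 0.60 ± 0.07 on the log2 scale, or 1.52-fold (limma, adjusted p = 0.000152), and 0.56 without mouse 339 (adjusted p = 0.000602).

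In aged mice Slc16a1 ranged from 7.08 to 8.27 in the fed group (median 8.02) and from 7.62 to 8.49 in the fasted group (median 7.96). The groups overlapped, and the log2 change was 0.19 ± 0.21 (95% interval -0.27 to 0.65, limma adjusted p = 0.723). It became -0.00070 without aged fed mouse 34, whose level of 7.08 was the lowest. The difference between the ages was -0.42 (95% interval -0.94 to 0.11, limma adjusted p = 0.517).

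Markers of other cell types moved beside the young results. Brown adipocyte markers had a mean log2 level over 8 genes of 4.39 to 5.71 in fasted against 4.32 to 4.63 in fed mice, where 4 rose and 1 fell. Cidea (2.84) and Cpt1b (0.73) were among those that rose, and the thermogenic marker Ucp1 did not pass, at 4.93, 3.86, 5.65 and 3.82 in young fasted mice 339, 340, 343 and 344 and at 3.43 to 3.86 in young fed mice. Of 11 liver markers 4 rose and 1 fell, with mean levels of 7.73 to 8.54 in fasted against 7.001 to 7.86 in fed mice. Of 6 collecting duct markers 2 fell, of 6 podocyte and endothelial markers 1 fell, and of 5 white adipocyte markers 1 rose. Macrophage markers were lower in young fasted mice, at 5.62 to 5.85 against 6.18 to 6.56, and 5 of 7 fell. The part of these and of the red cell markers in the young results of Oxct1, Aacs and Slc16a1 was not tested. The second Slc16a1 probe set had its group means between the 9.92 and 26.9 percentile of the arrays and gave 0.04 in aged and 0.16 in young mice, neither past the test.

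Slc16a7 encodes MCT2, a carrier of high affinity for the same substrates. Its level was 10.12, 10.19, 10.26, 10.12 and 10.19 in young fed mice and 9.89, 10.12, 10.10 and 10.09 in young fasted mice, close but without overlap. The change was -0.13 (95% interval -0.27 to 0.01, limma adjusted p = 0.204), and -0.08 without mouse 339, the lowest. In aged mice the range was 8.68 to 9.08 fed (median 8.77) and 8.75 to 8.89 fasted (median 8.87), and the change was -0.03 (-0.22 to 0.16, adjusted p = 0.910).

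Slc5a8 encodes SMCT1, which takes up lactate, ketone bodies and short-chain acids with sodium at the tubule's urinary side. Aged fed mice ranged from 9.87 to 10.10 (median 10.01) and aged fasted mice from 9.58 to 9.93 (median 9.87). Young fed mice ranged from 10.99 to 11.29 (median 11.02), and young fasted mice had 11.09, 11.13, 11.16 and 11.25. The diets overlapped at both ages. The log2 change was -0.15 (95% interval -0.33 to 0.02, limma adjusted p = 0.356) in aged and 0.06 (-0.11 to 0.22, adjusted p = 0.682) in young mice, with a difference of -0.21 (-0.44 to 0.02, adjusted p = 0.435).

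Slc5a12 encodes SMCT2, a carrier of lower affinity for lactate in the brush border of the proximal tubule. At its brightest probe set aged fed mice had log2 levels of 11.00, 10.98, 10.98, 10.68 and 11.24, and aged fasted mice 11.09, 11.27, 11.41, 11.18 and 11.30. All aged fasted mice lay above 4 of the 5 fed mice, and fed mouse 43 reached into the fasted range. The change was 0.27 (95% interval 0.06 to 0.49, limma adjusted p = 0.143), and 0.35 at the second probe set (0.12 to 0.58, adjusted p = 0.0731). The second probe set passed in 4 of 17 alternative fits, with an adjusted p of 0.0168 without aged fed mouse 43 and 0.0368 without aged fasted mouse 33. In young mice the changes were -0.01 and 0.11, with fed levels from 10.89 to 11.67 and fasted levels from 11.09 to 11.45 at the brightest probe set. The differences between the ages were 0.28 and 0.24 (limma adjusted p = 0.529 and 0.716).

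The genes whose levels ran most like each member over the 19 arrays, centred within each age, were found among all named genes and are given as a description, since all values come from the same arrays and diets. For Oxct1 they were Dpp7 (r = 0.971), Depdc1b (0.960) and Gusb (0.960). Dpp7, a lysosomal peptidase, changed by -1.38 in aged and -1.37 in young mice on the log2 scale. For Acat1 they were Glb1l (0.933), Tmem192 (0.883) and Hsd3b6 (0.882), and for Aacs Slc22a19 (0.897), Borcs8 (0.867) and Fam13b (0.866). For Slc16a1 they were Ndrg1 (0.870), Ptch1 (0.866) and Rasl11a (0.854), and for Slc5a12 Laptm4a (0.846), Wls (0.836) and Nox4 (0.809). Slc16a7 came closest to Dll3 (0.864), Msl3 (0.805) and 2410124H12Rik (0.804), and Slc5a8 to Brap (0.774), Marchf6 (0.764) and Sec23ip (0.749).

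Other genes around ketone and monocarboxylate handling were taken from 5 lists of 33 measured genes, each at its brightest probe set. Of these, 2 rose and 5 fell in aged mice, where 4.32% of all 17097 genes at their brightest probe sets rose and 4.84% fell. In young mice 5 rose and 8 fell, against 10.7% and 12.5% of all genes. For the difference between the ages 0 of 33 passed in limma and 3 had an unadjusted p under 0.05, against 2.44% and 15.3% of all genes. The counts of single lists below are small and are to be read against these shares.

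Of 13 measured monocarboxylate transporters and partners, 1 rose and 1 fell in aged mice and 1 rose and 4 fell in young mice, with list medians of -0.06 and -0.07 beside -0.01 over all genes. Slc16a6, whose product MCT7 is known as a carrier of beta-hydroxybutyrate, rose in both. Aged fed mice had Slc16a6 levels of 5.94, 6.29, 6.00, 5.91 and 5.61 and aged fasted mice 7.01, 6.70, 7.14, 6.91 and 6.91. Young fed mice had 6.35, 6.31, 6.43, 6.27 and 5.53 and young fasted mice 7.03, 7.19, 7.24 and 7.15. The diets were apart at each age, young fed mouse 350 being the lowest. The log2 change was 0.98 ± 0.12 in aged (limma, adjusted p = 0.000329) and 0.97 ± 0.16 in young mice (adjusted p = 0.00119), with a difference of 0.01 (95% interval -0.42 to 0.44).

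Slc16a12, a carrier of creatine, fell by 0.44 in aged (limma, adjusted p = 0.0157) and by 0.75 in young mice (adjusted p = 0.000136) on the log2 scale. Emb, which encodes embigin, a glycoprotein that brings monocarboxylate carriers to the membrane, fell by 0.34 in young mice (adjusted p = 0.00413) and changed by -0.20 in aged mice without passing (adjusted p = 0.0849). Slc16a5 fell by 0.34 in young mice (adjusted p = 0.0198), and Slc16a14 by 0.72 (adjusted p = 0.0284). The Slc16a5 fall no longer passed without young fasted mouse 339 (limma, adjusted p = 0.0568) or 343 (0.0512). The partner encoded by Bsg did not pass, at -0.17 in aged and -0.12 in young mice.

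Among 3 measured genes of lactate and pyruvate handling, 1 fell at each age. It was Ldha, a subunit of lactate dehydrogenase, at -0.29 in aged (limma, adjusted p = 0.00947) and -0.22 in young mice (adjusted p = 0.0125). Its aged fasted mice ranged from 11.10 to 11.22 against 11.40 to 11.52 in the fed mice, without overlap.

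Among 6 measured genes of acetate and cytosolic acetyl-CoA use, 3 fell at each age, and the list medians were -0.22 in aged and -0.25 in young mice. They were Fasn, encoding fatty acid synthase, Acly, encoding ATP citrate lyase, and Acaca, encoding acetyl-CoA carboxylase. Fasn changed by -1.09 in aged (limma, adjusted p = 0.0214) and -1.18 in young mice (adjusted p = 0.000114). Acly changed by -0.30 (adjusted p = 0.0365) and -0.41 (adjusted p = 0.00158), and Acaca by -0.61 (adjusted p = 0.0496) and -0.45 (adjusted p = 0.00413). In aged mice the adjusted p of these genes lay near the threshold. By a per-probe-set analysis of variance, run as an alternative, Fasn, Acaca and Acly did not pass in aged mice (adjusted p = 0.101, 0.153 and 0.0546). Fasn no longer passed without fed mouse 36 (limma, adjusted p = 0.0581, change -1.0001), Acaca without any one of mice 33, 36, 39, 41, 42 and 43 (0.0788 to 0.112, changes -0.63 to -0.55), and Acly without any one of mice 33, 34, 36, 37, 38, 41, 42 and 43 (0.0554 to 0.0881, changes -0.31 to -0.26). Aged fasted mouse 39 had the lowest Fasn level of all, 5.37 against 6.43 to 6.76 in the other aged fasted mice. Its level of the brown adipocyte marker Ucp1, 3.53, was also the lowest among aged mice. Aged fed mice 34, 36, 37, 40 and 43 had Ucp1 levels of 4.98, 7.35, 3.94, 7.58 and 5.73. Their Fasn levels were 6.98, 7.76, 7.09, 7.91 and 7.32. Mean levels of the 8 brown adipocyte markers were 4.28 to 5.52 in aged fasted and 4.47 to 5.96 in aged fed mice, where 0 rose and 1 fell. The part of these markers in the aged results was not tested.

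Of 4 other measured ketone enzymes and paralogues, 0 passed in aged mice by limma, also at an unadjusted p under 0.05 (23.7% of all genes), and 1 rose in young mice. It was Acat3, a cytosolic thiolase whose probes may also bind its close relative Acat2, at 0.57 in young (limma, adjusted p = 0.0101) and -0.06 in aged mice (adjusted p = 0.802). The difference of -0.63 did not pass (adjusted p = 0.0523).

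Of 7 measured receptors and regulators, 1 rose in aged and 3 rose in young mice. Ppara, the nuclear receptor that drives fatty acid oxidation and ketone synthesis in fasting, rose by 0.87 in aged (limma, adjusted p = 0.000152) and by 1.01 in young mice (adjusted p = 1.45e-05) on the log2 scale. Sirt3 and Sirt5, mitochondrial deacylases that act on enzymes of ketone metabolism, rose by 0.50 (adjusted p = 0.00129) and 0.27 (adjusted p = 0.0475) in young mice, and were at 0.14 and 0.10 in aged mice without passing. Sirt5 no longer passed without any one of mice 339, 340, 343, 344, 346, 348 and 350 (limma, adjusted p from 0.0512 to 0.123). The receptors encoded by Hcar1, Hcar2 and Ffar2 and the hormone gene Fgf21 did not pass in either age.

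**Figure D3:**
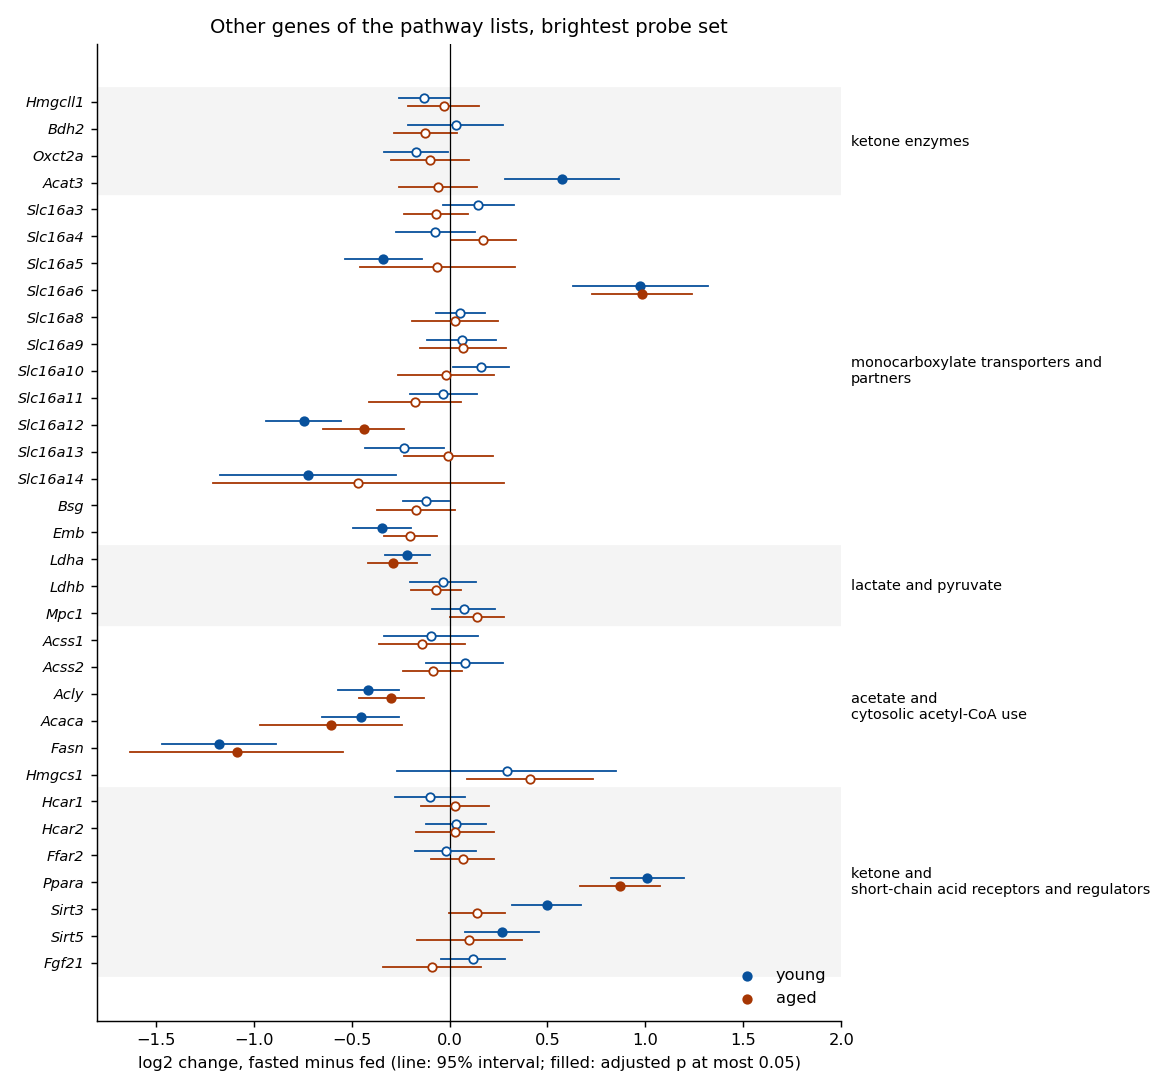
Log2 change on fasting (x axis, line for the 95% interval) of the 33 other genes, grouped by list, in young and aged mice; filled points passed at an adjusted p of at most 0.05. Slc16a6 and Ppara rose and Slc16a12, Ldha, Fasn, Acly and Acaca fell at both ages.

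**Figure D4:**
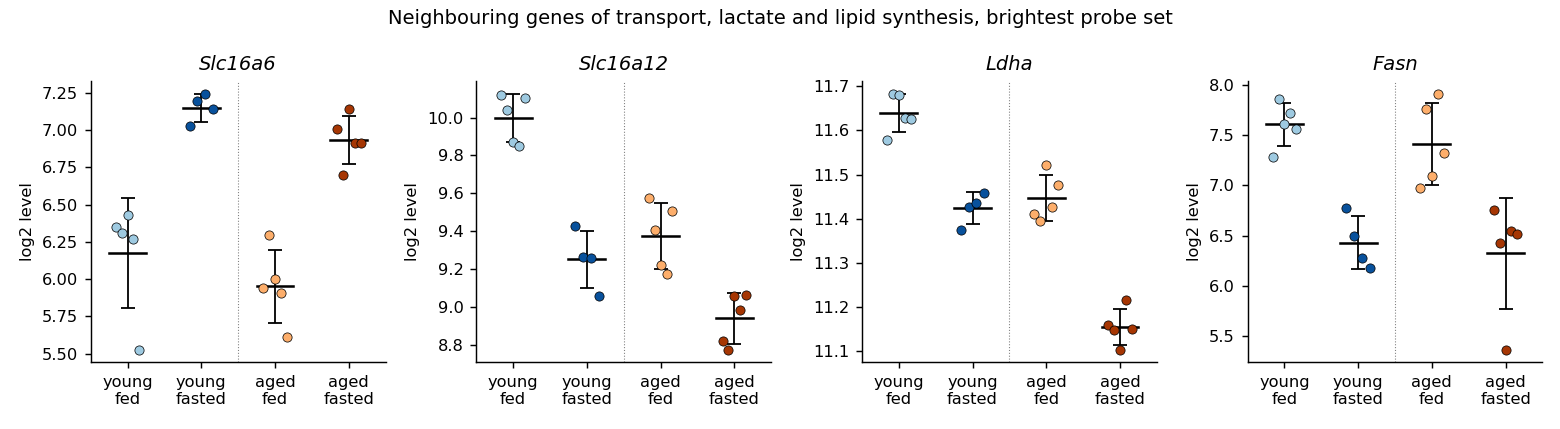
Log2 level (y axis) of Slc16a6, Slc16a12, Ldha and Fasn in each mouse (points), with the group mean and SD (line and bar), in young and aged, fed and fasted mice (x axis). The diets do not overlap for any of these 4 genes at either age.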

How the data were processed

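Kidney RNA of 19 mice, 1 array per mouse, was measured. The authors made log2 values with the RMA algorithm in a web pipeline whose versions the sources used here do not give, and deposited one table of log2 levels. The array medians differ by age, so levels were compared only within an age. Samples were grouped by the labels.
In R 4.3.3 with limma 3.58.1, fasted and fed mice were compared within each age, and the difference between ages came from one model of the 4 groups over all arrays. Adjustment was for all probe sets (Benjamini-Hochberg). The study's methods used an analysis of variance, run here as an alternative. Intervals cover 95%. The number of arrays limits the precision, and p values measure the spread between individual mice.
In the annotation 28898 probe sets carry 1 symbol, 551 several and 15692 are not listed. A gene was described at its brightest probe set. Further genes named were up to 4 of each list with the smallest adjusted p among those passing at some age, with Slc16a14, Bsg, the marker genes and the genes that did not pass added after their values were seen, and the 3 genes most like each member. The members and lists were chosen with earlier results of these data known. Some genes are not reported here.
On simulated data 98 of 100 probe sets changed by 1 on the log2 scale were recovered in aged, 95 of 100 in young and 90 of 100 for the difference. At 0.5 these were 54, 60 and 33. Unchanged probe sets called were 9, 13 and 2. The simulation changed 100 of 45141 probe sets at each size and gave all groups the same spread at a probe set. The real data differ in both respects, so these shares do not give the power of the tests reported here. Alternatives were another test, variance model, array weights, normalization, filter, threshold and gene summary, and leaving out each array.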

Additional observations from a re-analysis of the deposited data

Results flagged for a closer look

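A mouse lying far from the rest of its group at a probe set (by Dixon's test) was found in 7 of 60 groups tested. Chance gives about 1 in 20 independent groups. The groups here share the same mice, and several probe sets measure the same gene, so this comparison cannot show an excess.
At the brightest Oxct1 probe set aged fasted mouse 33 lay at 11.54, below the others at 11.56, a small gap in a very narrow group. Young fed mouse 346 lay at 12.56 there, with the others from 12.44 to 12.46. At the dimmest Oxct1 probe set aged fed mouse 43 lay at 10.30, with the others from 9.97 to 10.05.
At the dim Aacs probe set aged fed mouse 40 lay at 3.32 (others 2.95 to 3.04) and aged fasted mouse 41 at 2.87 (others 3.04 to 3.07). At the brightest Acat1 probe set young fed mouse 349 lay at 12.44 (others 12.54 to 12.56). For Slc16a7 young fasted mouse 339 lay at 9.89, with the others from 10.09 to 10.12, and this mouse also had the highest liver marker level of its group.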

How the results depend on the processing

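Of 45 tests of the 15 probe sets, 10 passed, and all 10 passed in each alternative fit at the same threshold (17 fits for aged, 16 for young mice), with no change of sign. Of the 35 that did not pass, 2 passed under some alternative and 13 changed sign under some alternative. Without a fold minimum 4 probe sets passed in aged and 6 in young mice, and with a fold of at least 1.5 these counts became 0 and 2. Leaving out 1 array gave 4 to 5 in aged, 6 to 7 in young mice and 0 for the difference. The brightest Acat1 probe set passed in young mice in 4 of 16 fits (limma adjusted p from 0.0135 to 0.156).
Log2 changes that changed sign when 1 array was left out ran, in aged mice, from -0.073 to 0.020 for the dim Aacs probe set, from -0.00070 to 0.30 for Slc16a1, from -0.0095 to 0.076 for the dim Slc16a1 probe set, from -0.076 to 0.025 for Slc16a7 and from -0.22 to 0.053 for Slc16a5. In young mice they ran from -0.13 to 0.00997 for the dim Aacs probe set, from -0.0045 to 0.048 for the dimmest Acat1 probe set, and from -0.10 to 0.090 and -0.015 to 0.22 for the brighter and dimmer Slc5a12 probe sets. For the difference they ran from -0.053 to 0.013 for the Oxct1 probe set next in brightness to the brightest, from -0.041 to 0.060 for the one after it, from -0.056 to 0.088 for the dim Aacs probe set, from -0.038 to 0.014 for the brightest and from -0.0023 to 0.068 for the dimmest Acat1 probe set. Centring arrays on their medians gave -0.0074 for the dimmest Acat1 probe set in young mice, and differences of 0.0047 for the brighter of these Oxct1 probe sets and 0.0085 for the brightest Acat1 probe set. Quantile normalization gave a difference of -0.012 for the dimmer of these Oxct1 probe sets, and leaving out mice 33 and 339 together gave -0.013 for the dim Aacs and -0.0066 for the dimmest Acat1 probe set. The cause was not tested.
Among the other genes in aged mice, Fasn passed in 15, Acaca in 10 and Acly in 8 of 17 fits, and Emb passed in 2. In young mice Acat3 passed in 15, Slc16a5 in 12 and Sirt5 in 6 of 16. No paired analysis was possible because the sample labels name no pairs of mice. Probes near background bound what the dim probe sets of Aacs and Slc16a1 can show.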
